A study of Mus musculus with 3 samples.

Results

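Elastic fibres and the microfibrils that carry them were followed through 10 genes in cells sorted from mouse molars. They were the fibrillins Fbn1 and Fbn2, elastin (Eln), the fibulins Fbln1, Fbln2 and Fbln5, the microfibril-associated genes Mfap2, Mfap4 and Mfap5, and Emilin1. The genes were chosen by name, and all 10 were among the 21446 genes that the count tables of the 3 libraries shared by identifier. The cells came from mandibular molars of Pthrp-mCherry knock-in mice on a C57BL/6 background, and mCherry-positive cells were isolated by FACS at postnatal day 15 (P15), P25 and 8 weeks. Every group carried the knock-in reporter, which marks cells that express Pthlh and is not limited to 1 cell type. Cells were pooled from mandibles into 1 library at each age, so no difference between ages could be tested.

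Fibrillins assemble outside the cell into microfibrils. Elastin is laid down on them with the help of fibulin-5 and is cross-linked by lysyl oxidases, while microfibril-associated proteins and emilin-1 bind the fibrils or lie where elastin and microfibril meet. The periodontal ligament, which holds the root in its socket, is known for oxytalan fibres, bundles of microfibrils with little elastin. Fibrillins and the latent TGF-beta binding proteins also hold TGF-beta in the matrix.

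Of 27089 cells, 23607 had no UMI (unique molecular identifier, 1 for each captured RNA molecule) of Ptprc, a leukocyte gene, or Epcam, an epithelial gene, and are called mesenchymal here. The libraries of P15, P25 and 8 weeks held 12926, 8971 and 5192 cells with a median depth of 14253.5, 15834 and 8712.5 UMIs, and each pair of libraries shared 13 to 26 cell barcodes. Classes were set by the UMIs of 5 genes: Ibsp, a sialoprotein of mineralizing matrix, Ifitm5, a gene of bone-forming cells, Hand2, a transcription factor, Rgs5, a gene of mural cells of vessels, and Pappa2, a protease of IGF-binding proteins. A gate took at least 3 UMIs, or 1 more than the 95th percentile in cells with 2 or more Ptprc or Epcam UMIs where that was higher. This gave 5 UMIs for Ibsp at P15 and 8 weeks and 46 at P25. In the order P15, P25 and 8 weeks, which holds for every series of 3 values here, the classes had 1392, 897 and 1019 cells for Ibsp, 604, 787 and 253 for Ifitm5, 167, 369 and 72 for Hand2, and 289, 128 and 138 for Rgs5. The Pappa2 class had 399 cells at P15 but 18 and 8 later, so it was tested with P15 alone. The Ifitm5 class kept cells that also passed the Ibsp gate, while each other class passed its own gate only. Of the 633, 813 and 273 mesenchymal cells that passed the Ifitm5 gate, 462, 555 and 256 also passed the Ibsp gate. A further 7463, 5166 and 3047 cells passed no gate, and cells that passed both the Ibsp and the Hand2 gate (47, 454 and 478) were kept apart. Cells with other combinations of gates (306, 60 and 46) were left out of the tests.

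Class names were checked against marker genes. The Ifitm5 class held Bglap, the osteocalcin gene, at 7043, 15896 and 30046 CPM (UMIs scaled to the total of the class), and the Hand2 class held the peptide gene Nts at 1127, 1451 and 1327 CPM. The Ifitm5 class also held Ibsp, at 13693, 10243 and 17011 CPM, against 13037, 21448 and 19311 CPM in the Ibsp class. The Rgs5 class was not the same population at each age. Its level of the mural receptor gene Notch3 was 326, 29.8 and 8.21 CPM. The sum of 9 mural markers was 7372, 677 and 837 CPM, but includes Rgs5 itself, which the gate selects. By Notch3, the mural label was not borne out at P25 and 8 weeks, and the class is named by its gate alone. By the headers, the P25 counts came from another Cell Ranger version than the others, while the submitters' processing notes give the same version. More genes were listed at P25 than at the other ages, and whether the gene reference differed is not given in the sources used here. Any such difference in processing cannot be told apart from age.

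In GENCODE positions (build GRCm38) the genes include Fbn1 at chr2:125300594-125507993 (minus strand), Eln at chr5:134702593-134747323 (minus strand), Fbln1 at chr15:85205949-85286535 (plus strand), Fbln2 at chr6:91212455-91272540 (plus strand), Fbln5 at chr12:101746565-101819055 (minus strand), Mfap2 at chr4:141010418-141015984 (plus strand), Mfap4 at chr11:61485431-61488900 (plus strand), Mfap5 at chr6:122505845-122529290 (plus strand) and Emilin1 at chr5:30913402-30921277 (plus strand). Mapk7 overlaps Mfap4 and Gm9913 overlaps Fbn1, each on the opposite strand and each in the count tables. Whether counting used strand is not given in the sources used here.

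Fbln1, Fbln5 and Mfap2 were all called lower in the Ifitm5 class, and the sequence around the start of each is shown for that reason alone. RefSeq promoters (250 bases before to 50 after the start, GRCm38.p6) matched 6 of the 10 genes by symbol: Fbn1, Fbln1, Fbln2, Fbln5, Mfap2 and Emilin1. The first listed start is printed 5′ to 3′, and capitals mark matches on either strand to the GC box GGGCGG, the CCAAT box CCAAT, the TATA box TATAAA, the RUNX motif ACCACA, the TCF/LEF motif CTTTGAT or the E box CAGCTG.
Fbln1, chr15:85205699-85205998 (plus strand): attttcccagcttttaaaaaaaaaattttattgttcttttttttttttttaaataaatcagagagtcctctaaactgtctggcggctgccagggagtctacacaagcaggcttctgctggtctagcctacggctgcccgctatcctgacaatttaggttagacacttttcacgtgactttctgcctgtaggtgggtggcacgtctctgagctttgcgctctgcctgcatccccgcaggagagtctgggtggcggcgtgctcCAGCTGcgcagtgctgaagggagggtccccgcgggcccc
Fbln5, chr12:101819070-101819369 (minus strand): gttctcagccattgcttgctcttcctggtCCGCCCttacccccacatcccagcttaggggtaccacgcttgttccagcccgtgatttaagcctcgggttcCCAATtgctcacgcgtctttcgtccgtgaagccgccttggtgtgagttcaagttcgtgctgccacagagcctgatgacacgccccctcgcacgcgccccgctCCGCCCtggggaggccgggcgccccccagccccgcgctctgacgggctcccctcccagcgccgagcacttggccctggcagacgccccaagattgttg
Mfap2, chr4:141010431-141010730 (plus strand): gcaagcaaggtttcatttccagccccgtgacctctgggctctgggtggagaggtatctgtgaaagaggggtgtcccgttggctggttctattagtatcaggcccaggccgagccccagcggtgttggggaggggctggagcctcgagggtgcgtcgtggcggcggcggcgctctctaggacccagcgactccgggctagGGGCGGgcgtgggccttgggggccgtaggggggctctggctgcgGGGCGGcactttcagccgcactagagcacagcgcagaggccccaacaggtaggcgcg
The Fbln1 window held 1 E box, the Fbln5 window 1 CCAAT box and 2 GC boxes, and the Mfap2 window 2 GC boxes, without overlaps. Of the 32851 promoters in the table, 35.7% held the GC box, 37.4% the CCAAT box, 16.3% the E box, 16.8% the RUNX motif, 13.6% the TATA box and 3.73% the TCF/LEF motif. No motif searched occurred in all 3 of these windows. The table lists another start for each gene, and the window at that of Fbln1, chr15:85205758-85206057, held 2 GC boxes, so the GC box was found in all 3 genes when it was counted, while that of Fbln5 held no motif searched and that of Mfap2 held 1 CCAAT box. A match describes letters only.

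Over all mesenchymal cells, Mfap2, whose small protein coats microfibrils, had the highest level of the 10 genes at P15, and Fbln1, a fibulin of connective tissue matrix, had the highest at P25 and 8 weeks. Each UMI stands for 1 molecule read at its 3′ end, so levels were compared between genes without division by length. Mfap2 stood at 521, 403 and 308 CPM (95% Poisson interval at P15 517 to 525), and Fbln1 at 211, 432 and 475 CPM (208 to 213 at P15). Mfap5 was the lowest at P15 and P25, at 27.7 and 53.2 CPM, and Fbln5 at 8 weeks, at 71.6 CPM. Intervals cover counting error only. Free RNA was gauged in the epithelial cells with Epcam UMIs, where the levels of Fbn1, Fbn2 and Eln were 10.5% to 14.4% of the mesenchymal level at P15, 7.31% to 11.7% at P25 and 1.60% to 2.48% at 8 weeks. In cells with Ptprc UMIs (807, 217 and 19) the same genes were at 24.7% to 30.1% at P15 and 19.4% to 24.8% at P25, and had no UMI at 8 weeks.

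**Figure D1:**
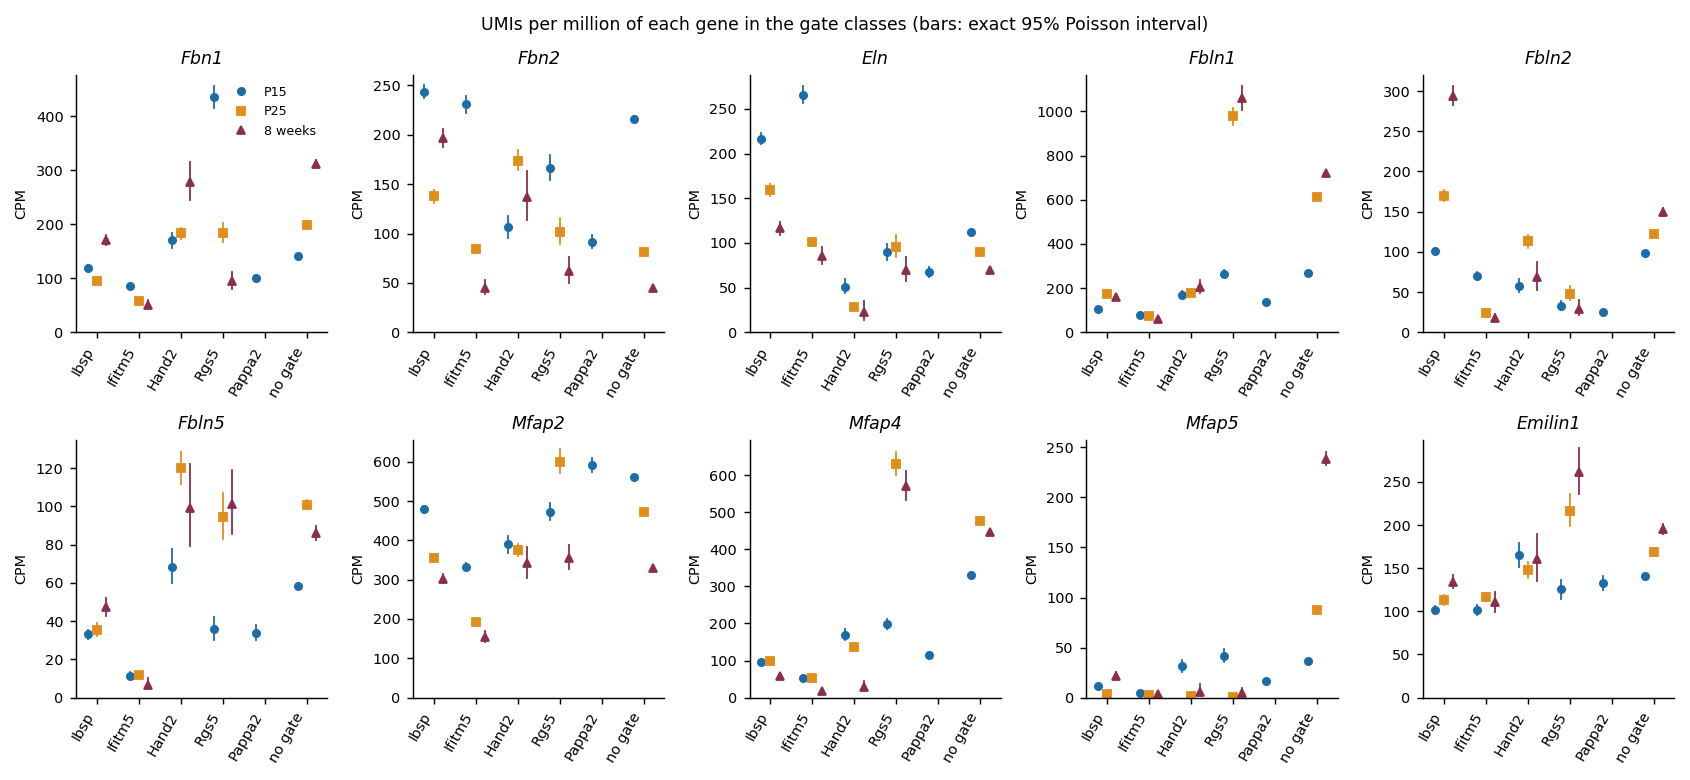
Each panel plots 1 gene, with CPM on the vertical axis and the 5 gate classes and the cells that passed no gate on the horizontal axis. Points are the sums of 1 library (circles P15, squares P25, triangles 8 weeks), bars are exact 95% Poisson intervals, and sums of fewer than 20 cells are left out. Eln is lowest in the Hand2 class and Fbln5 lowest in the Ifitm5 class at each age, and Mfap5 at 8 weeks stands at 239 CPM in cells without a gate.

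Elastin set the Ibsp and Ifitm5 classes apart from the Hand2 class, which leaves out cells that also passed the Ibsp gate. Eln stood at 217, 159.5 and 116 CPM in the Ibsp class and at 266, 101 and 85.4 CPM in the Ifitm5 class. It was 51.1, 28.3 and 22.8 CPM in the Hand2 class and 89.3, 95.6 and 69.8 CPM in the Rgs5 class, and the Hand2 values did not overlap those of any other class. Classes were compared with edgeR's quasi-likelihood test on UMIs summed per class and library, with the library as a block. A call thus asks for a difference shared by the ages. Its p-value measures how class differences vary between the 3 libraries of pooled cells. With 1 library an age, that spread cannot be told apart from class differences that change with age. Eln was lower in the Hand2 class than in the mean of the other 4 (log2 fold change -1.67, SE 0.22, edgeR adjusted p = 0.00402, lower in 3 of 3 libraries). It was higher in the Ibsp class (1.27, SE 0.18, edgeR adjusted p = 0.0110) and in the Ifitm5 class (1.21, SE 0.18, edgeR adjusted p = 0.00157), each in 3 of 3 libraries. The other 4 include the Hand2 class with its low Eln. Against the mean CPM of the other classes, the log2 difference was 1.32, 0.0898 and 0.290 in the Ifitm5 class. In the Ibsp class it was 0.866, 1.08 and 0.960. These differences are not on the scale of the test, since they lack its TMM factors, which balance composition, and take the mean before the log. With these factors, Eln stood at 271, 126 and 97.1 CPM in the Ifitm5 class and 209, 166 and 112 in the Ibsp class. It then stood at 47.9, 28.0 and 21.0 in the Hand2 class and 78.3, 95.4 and 66.8 in the Rgs5 class. The Ibsp and Ifitm5 classes themselves differed in Eln by 0.05, SE 0.22, edgeR adjusted p = 0.947. The Ifitm5 call was kept in all 16 alternatives. The Ibsp call was lost without P25 (adjusted p = 0.148 by edgeR), without 8 weeks (0.130), without the library block (0.168) and with all gates at 3 UMIs (0.0514), and the Hand2 call without P25 (0.0763) and with cells thinned to 3000 UMIs (0.238).

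Fbln5, whose protein brings elastin to microfibrils, ran the other way. It stood at 68.4, 120.1 and 99.0 CPM in the Hand2 class and at 33.0, 35.4 and 47.3 CPM in the Ibsp class. In the Ifitm5 class it was 11.5, 11.8 and 6.75 CPM, the lowest of the classes at every age, against 6.29, 7.82 and 1.35 CPM in Epcam cells. In Ptprc cells Fbln5 stood at 9.20 CPM at P15 and at 16.5 CPM at P25, so its level in the Ifitm5 class was near theirs at P15 and below it at P25. Fbln5 was lower in the Ifitm5 class than in the other 4 (-2.23, SE 0.30, edgeR adjusted p = 0.00116, lower in 3 of 3 libraries) and higher in the Hand2 class (1.37, SE 0.25, edgeR adjusted p = 0.0157, higher in 3 of 3). It was the 1 gene of the 10 called between the Ibsp and Ifitm5 classes (1.65, SE 0.32, edgeR adjusted p = 0.0209, higher in the Ibsp class in 3 of 3 libraries). The Ifitm5 call against the other 4 was kept in all 16 alternatives. The Hand2 call was lost without P25 (edgeR adjusted p = 0.191) and after thinning (0.141), and the call between the Ibsp and Ifitm5 classes without P25 (0.281), without 8 weeks (0.108) and without the library block (0.0588).

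In the Ifitm5 class, 3 of 10 genes were lower (10.0% of the 13204 genes tested were) and 1, Eln, was higher (12.2% of genes tested). Besides Fbln5, these were Fbln1, at 76.6, 73.4 and 58.1 CPM (-1.55, SE 0.35, edgeR adjusted p = 0.0167), and Mfap2, at 332, 193 and 155 CPM (-0.75, SE 0.15, edgeR adjusted p = 0.00678), both lower in 3 of 3 libraries. The median log2 fold change of the 10 was -0.88, against -0.0054 over all genes tested. Fbn1, the fibrillin of adult microfibrils, stood at 86.4, 57.9 and 51.1 CPM, its lowest of any class at each age, and missed the threshold (-1.003, SE 0.40, edgeR adjusted p = 0.115). Mfap4, a fibrinogen-related microfibril protein, stood at 51.5, 53.5 and 18.8 CPM and missed it too (-1.69, SE 0.53, edgeR adjusted p = 0.0563). DESeq2 called 6 of 10 genes in this class, among them Fbn1 (DESeq2 adjusted p = 0.0273) and Mfap4 (0.00194). Without the Pappa2 class both passed by edgeR (adjusted p = 0.0470 and 0.0366). Mfap4 also passed with all gates at 3 UMIs (edgeR adjusted p = 0.0279) and without the 5% deepest cells (0.0452). Emilin1 had similar values in the Ifitm5 (101, 117 and 111 CPM) and Ibsp classes (101, 113 and 134 CPM), with a difference of -0.12, SE 0.19, edgeR adjusted p = 0.792. Without P25 or without 8 weeks the Fbln1 call was lost (edgeR adjusted p = 0.148 and 0.0730), as was the Mfap2 call (0.0843 and 0.0830), and thinning ended the Fbln1 call (0.313). The study took Fbln1, Mfap4 and Fbn1 among its cluster markers from these same libraries, so their class differences are not independent of that choice.

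**Figure D2:**
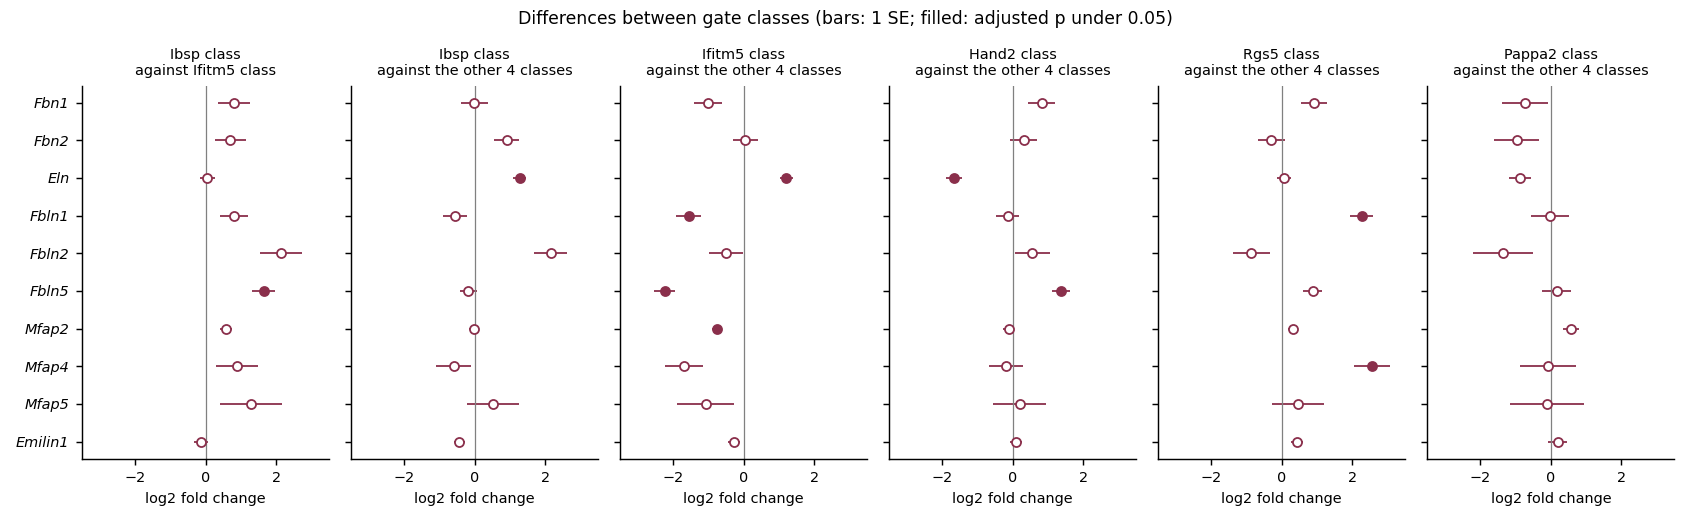
Each panel plots 1 comparison of classes, with the log2 fold change from edgeR on the horizontal axis and the 10 genes on the vertical axis. Bars are 1 SE and filled points have an adjusted p under 0.05. Eln is filled at -1.67 for the Hand2 class and at 1.27 and 1.21 for the Ibsp and Ifitm5 classes, and no point is filled for the Pappa2 class, which rests on the P15 library alone.

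In the Ibsp class against the other 4, 1 of 10 genes was higher (1.48% of genes tested) and 0 were lower (0.507% of genes tested), with 4 at an unadjusted p under 0.05 by edgeR and 2 called by DESeq2. Fbln2, a fibulin that binds fibrillin and elastin, had the largest difference of the 10 there but did not pass. It stood at 101, 170.0 and 294 CPM in the Ibsp class and at 69.5, 23.9 and 18.2 CPM in the Ifitm5 class, so that the classes lay further apart at each later age. The sum of 5 periapical markers, among them Hand2 and Nts, was 578, 2073 and 3395 CPM in the Ibsp class and 354, 338 and 288 CPM in the Ifitm5 class, and its part in the Fbln2 levels was not tested. In cells of both the Ibsp and the Hand2 gate, Fbln2 stood at 169.7, 292 and 319.9 CPM. The difference was 2.16, SE 0.47, edgeR adjusted p = 0.0661 against the other 4 and 2.13, SE 0.60, edgeR adjusted p = 0.0761 against the Ifitm5 class, higher in 3 of 3 libraries in both. Without P15 it passed in both comparisons (edgeR adjusted p = 0.0352 and 0.0194). Between the Ibsp and Ifitm5 classes, 1 gene was higher (3.08% of genes tested) and 0 lower (4.07% of genes tested), with 3 at an unadjusted p under 0.05 by edgeR and 3 called by DESeq2. Fbn2, the fibrillin best known from developing tissue, stood at 244, 138 and 197 CPM in the Ibsp class. Its difference was 0.91, SE 0.35, edgeR adjusted p = 0.298 against the other 4 classes. Against the Ifitm5 class it was 0.70, SE 0.44, edgeR adjusted p = 0.42.

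The Rgs5 class had the highest Fbln1 and Mfap4 of the gated classes at each age. Cells without a gate held 78.6%, 82.6% and 79.5% of Fbln1 UMIs and 84.6%, 85.8% and 84.9% of Mfap4 UMIs. They were 70.0%, 65.6% and 60.2% of mesenchymal cells. The Rgs5 class held 3.43%, 4.43% and 7.42% of Fbln1 UMIs and 2.22%, 3.83% and 6.91% of Mfap4 UMIs. In this class Fbln1 stood at 266, 977 and 1059.6 CPM and Mfap4 at 198, 632 and 572 CPM. Both were higher than in the other 4 classes (2.27, SE 0.33, edgeR adjusted p = 0.00437 for Fbln1, and 2.55, SE 0.50, edgeR adjusted p = 0.0144 for Mfap4), in 3 of 3 libraries, and made up 2 of 10 genes higher (8.97% of genes tested), with 0 lower (5.98% of genes tested). At an unadjusted p under 0.05 there were 5 in either direction by edgeR, and DESeq2 called 3. The levels were highest at P25 and 8 weeks, when Notch3 was low in this class. The sum of 9 genes of the dissociation stress response in the class was 12647, 17563 and 29917 CPM, against 10646, 9323 and 9631 CPM in the Ibsp class, and its part in these differences was not tested. With the Rgs5 gate at 20 UMIs, chosen after seeing the data, only the P15 library kept 20 or more cells, and the difference was 0.01 for Fbln1 (edgeR adjusted p = 1) and -0.60 for Mfap4 (edgeR adjusted p = 0.534). Both calls were also lost without P25 (0.0794 and 0.148) and after thinning (0.270 and 0.617), and that of Mfap4 with doubled gates (0.0502). Fbn1 in this class stood at 436, 184 and 95.1 CPM, highest in the P15 library, in which Notch3 was also highest (0.92, SE 0.36, edgeR adjusted p = 0.132).

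In the Hand2 class, 1 gene was higher, Fbln5 (4.15% of genes tested), and 1 was lower, Eln (3.98% of genes tested). Fbn1 stood at 170.0, 183 and 279 CPM there, above the Ibsp class at 119, 94.4 and 171 CPM in each library, and did not pass (0.82, SE 0.38, edgeR adjusted p = 0.234). The Pappa2 class had 0 of 10 genes higher (0.500% of genes tested) and 0 lower (0.0757% of genes tested) by edgeR, with 2 at an unadjusted p under 0.05 and 0 called by DESeq2. Its P15 levels ran from 16.3 CPM for Mfap5 to 592 CPM for Mfap2, and the test assumed that its lone sum varies like the others.

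Between ages, 3 of 10 genes were at least 2-fold higher at 8 weeks than at P15 over all mesenchymal cells (3.89% of the 8736 genes compared were) and 0 were at least 2-fold lower (2.80% of genes compared). These ratios use CPM scaled by TMM factors, which balance libraries of different composition, and with 1 library an age they describe those libraries. Over the same cells, 9 genes of the dissociation stress response summed to 10870, 12823 and 18562 CPM and 5 epithelial markers, of which Epcam was at 0 by the choice of cells, to 588, 545 and 163 CPM, and their part in the ratios was not tested. Mfap5, a microfibril protein, stood at 26.2, 57.9 and 131 TMM-scaled CPM, a ratio of 5.01. Fbln1 stood at 199, 470.5 and 462 (ratio 2.32) and Fbln2 at 83.2, 129.8 and 178 (ratio 2.15). The Fbln1 step lay between P15 and P25, while Mfap5 and Fbln2 were higher at each later age. Fbn1 had a ratio of 1.77, Fbln5 of 1.52, Emilin1 of 1.34 and Mfap4 of 1.17. Below 1 were Fbn2 (0.539), Mfap2 (0.609) and Eln (0.649). An alternative gave the Ibsp, Ifitm5, Hand2 and Rgs5 classes equal weight and left out all other mesenchymal cells. There the ratio was 0.406 for Mfap5, 0.750 for Fbn1 and 1.60 for Fbln2. The median log2 ratio was 0.52 over the 10 genes and 0.034 over all genes compared.

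The same gene took different courses in different classes. Fbn2 was lower at 8 weeks in cells without a gate (204, 88.5 and 44.3 TMM-scaled CPM) and in the Ifitm5 class (208, 93.0 and 45.5), but in the Ibsp class it stood at 238, 145 and 192 and in cells of both the Ibsp and Hand2 gates at 207, 248 and 269. The cells without a gate held 64.5%, 46.3% and 21.8% of all Fbn2 UMIs, and the cells of both gates 0.597%, 13.9% and 32.9%, though these were 0.441%, 5.76% and 9.45% of mesenchymal cells. The Ibsp gate took 46 UMIs at P25 and 5 at P15 and 8 weeks, so the P25 values of these cells follow a stricter choice. Its part in the courses was not tested. Fbln2 was 2.91 times its P15 level at 8 weeks in the Ibsp class and 0.293 times in the Ifitm5 class. In the Ifitm5 class 4 genes were at least 2-fold lower at 8 weeks (Fbn2, Eln, Fbln2 and Mfap4, with 3.62% of genes compared) and 0 higher (3.70%). In cells without a gate 3 were higher (Fbn1, Fbln1 and Mfap5, with 6.72% of genes compared) and 1 lower (Fbn2, 3.74%). In the Ibsp class 1 was higher (Fbln2, 2.23%) and 0 lower (3.04%). In the Hand2 class 0 were higher (5.77%) and 3 lower (Eln, Mfap4 and Mfap5, 6.52%), and in the Rgs5 class, whose makeup differed between ages, 4 were higher (Fbln1, Fbln5, Mfap4 and Emilin1, 8.34%) and 3 lower (Fbn1, Fbn2 and Mfap5, 8.63%). Some of these rest on few UMIs at 8 weeks: 20 of Eln, 26 of Mfap4 and 5 of Mfap5 in the Hand2 class, and 7 of Mfap5 in the Rgs5 class.

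Mfap5 was held by few cells. The 1% of mesenchymal cells with the most Mfap5 UMIs (107, 79 and 51 cells) held 71.9%, 85.5% and 46.8% of them. For the other 9 genes, the top 1% of cells held 4.85% to 26.2% of the UMIs, from 4.91%, 5.61% and 4.85% for Mfap2 to 14.99%, 22.6% and 26.2% for Fbn1. Cells with 3 or more Mfap5 UMIs numbered 245, 177 and 249, which is 2.297%, 2.25% and 4.92% of mesenchymal cells, and 79.2%, 93.8% and 93.6% of them passed no gate.

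**Figure D3:**
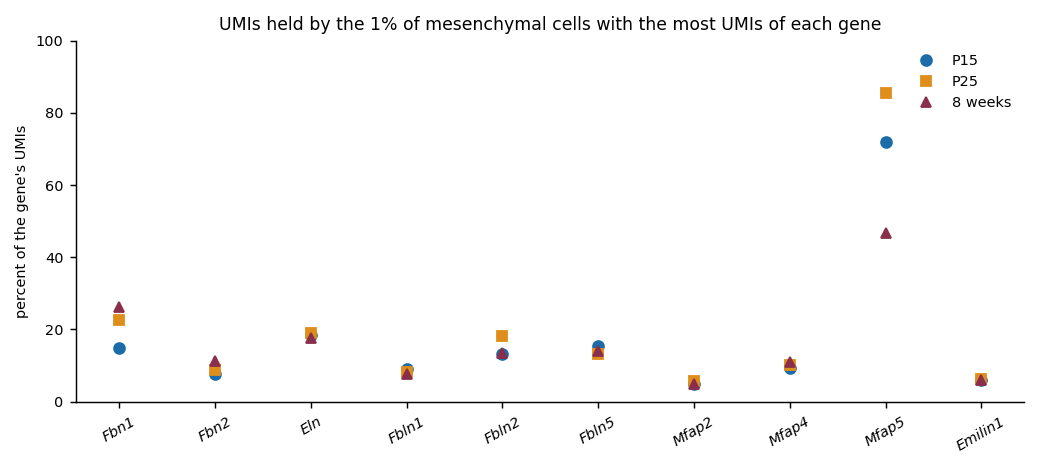
The percent of a gene's UMIs held by the 1% of mesenchymal cells with the most of them, on the vertical axis, is plotted for the 10 genes on the horizontal axis, with circles for P15, squares for P25 and triangles for 8 weeks. Mfap5 lies at 71.9%, 85.5% and 46.8%, and the other 9 genes lie at or below 26.2%.

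Cells with 3 or more Mfap5 UMIs held most of the other members at other levels than the cells with none, a comparison of cells chosen by Mfap5 within libraries and given without a test. Fbn1 stood at 799, 1201 and 1614 CPM in the former and at 121, 124 and 135 CPM in the latter, so that the difference between ages seen over all mesenchymal cells (140.0, 159.7 and 239.9 CPM) was small among cells without Mfap5. Fbln2 stood at 238, 676 and 657 against 84.2, 97.2 and 146 CPM, Fbln5 at 98.6, 198 and 197 against 47.1, 69.7 and 61.7 CPM, and Eln at 489.5, 279 and 165 against 126, 94.1 and 78.6 CPM. These 4 genes were higher in the Mfap5 cells at each age. Fbn2 ran the other way, at 184, 26.7 and 11.4 against 209, 106 and 117 CPM, as did Emilin1, at 99.1, 73.0 and 64.7 against 131, 153 and 177 CPM, and Mfap2, at 486, 219.9 and 193 against 523, 410.2 and 318 CPM. Fbln1 (354, 318 and 376 against 207, 438 and 482 CPM) and Mfap4 (599.5, 334 and 194 against 234, 323 and 280.1 CPM) were higher in Mfap5 cells at P15 but not at 8 weeks.

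**Figure D4:**
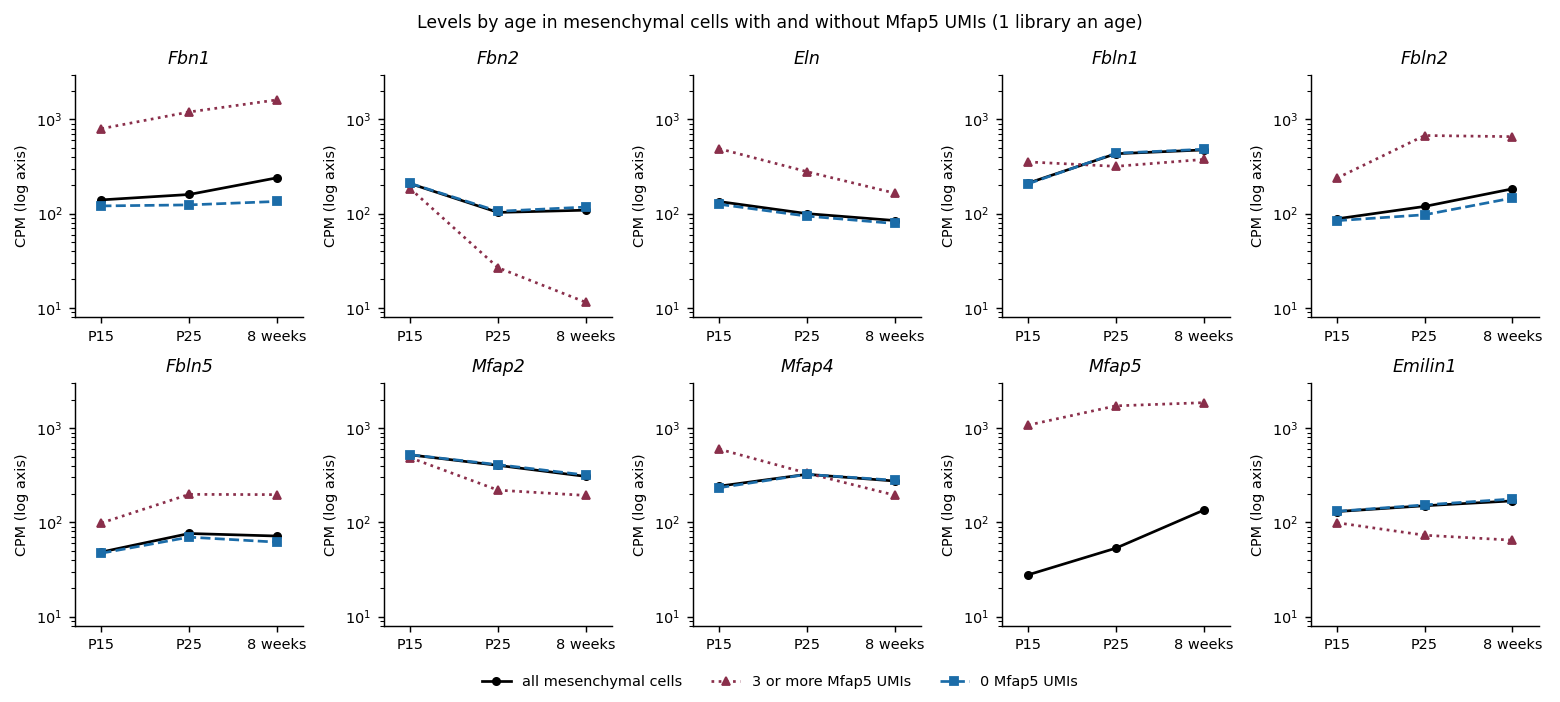
Each panel plots 1 gene, with CPM on a log axis against age, for all mesenchymal cells (solid line), cells with 3 or more Mfap5 UMIs (dotted) and cells with none (dashed), 1 library an age. The dotted Fbn1 line runs from 799 to 1614 CPM and the dashed one from 121 to 135 CPM, and Fbn2 in the Mfap5 cells is at 11.4 CPM at 8 weeks.

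The genes that led in these cells were picked after their values were seen, as those with the largest smallest fold over the 3 libraries. Clec3b, the tetranectin gene, stood at 396, 695 and 1884 CPM in Mfap5 cells and 0.915, 0.722 and 2.63 CPM in cells without Mfap5. Pi16 stood at 118, 634 and 1659 against 0.964, 3.30 and 4.37 CPM and Cd34 at 207, 488 and 1148 against 8.72, 2.35 and 4.57 CPM. The other leading genes were Mgp, Fmo2 and Igfbp6, which ranked above Pi16 and Cd34, and Chrdl1, Il33, Ccl11 and Col14a1. The cells held Pthlh, the gene of the sorted reporter, at 74.8, 273 and 226 against 160.3, 209 and 234 CPM. The sum of 5 cementoblast markers, among them Ibsp, was 1107, 1400 and 617 against 3867, 6169 and 9025 CPM. A sum of 4 with Ifitm5 and Bglap was 543, 174 and 287 against 1143, 3412 and 4782 CPM. Ligament fibroblast markers summed to 2107, 3780 and 1546 against 1790, 3232 and 2705 CPM. Summed mural markers were 919, 369 and 359 against 498, 239 and 359.8 CPM, and summed Schwann cell markers 161, 28.5 and 19.9 against 40.6, 13.8 and 12.8 CPM. The part of all these markers in the levels was not tested.

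Other genes of the pathway were taken from a list with 48 genes in the files, of which 45 were tested. In the Ifitm5 class 14 were higher and 12 lower, where 12.2% and 10.0% of all genes tested were. Adamtsl2 and Adamtsl3, which encode ADAMTS-like proteins of the microfibril, moved apart there: Adamtsl2 was higher (5.11, SE 0.79, edgeR adjusted p = 0.00183) and Adamtsl3 lower (-2.56, SE 0.48, edgeR adjusted p = 0.00471). Adamtsl2 was at 0 in 5 of the 13 sums and low in the others, so the size of its fold depends on the prior count, with 6.24, 14.8 and 5.01 TMM-scaled CPM in the Ifitm5 class and 0.0438, 0.232 and 0.548 in the Ibsp class. The lysyl oxidase family gene Loxl4 was higher (3.30, SE 0.54, edgeR adjusted p = 0.00191) and the protease gene Mmp9 lower (-2.39, SE 0.65, edgeR adjusted p = 0.0347). In the Ibsp class 1 was higher, the protease gene Adamts6 (1.92, SE 0.22, edgeR adjusted p = 0.00296), and 1 lower, Tgfb3 (-0.65, SE 0.12, edgeR adjusted p = 0.0259), where 1.48% and 0.507% of all genes tested were. Between the Ibsp and Ifitm5 classes 5 were higher and 5 lower (3.08% and 4.07% of genes tested). Among the former were the integrin gene Itga8 (2.39, SE 0.48, edgeR adjusted p = 0.0216) and Thsd4, whose protein binds fibrillin-1 (1.58, SE 0.25, edgeR adjusted p = 0.00840). Among the latter were Adamtsl2 (-5.18, SE 0.90, edgeR adjusted p = 0.0113) and Loxl4 (-2.73, SE 0.60, edgeR adjusted p = 0.0247), the 2 largest differences called.

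In the Hand2 class 3 of the 45 were higher and 4 lower, where 4.15% and 3.98% of all genes tested were. Thsd4 stood at 96.4, 174 and 242 TMM-scaled CPM there, against 17.5, 18.0 and 21.7 in the Ifitm5 class, and was higher (1.53, SE 0.20, edgeR adjusted p = 0.00355). Adamtsl3 was also higher (1.86, SE 0.38, edgeR adjusted p = 0.0197), while Loxl3 (-2.00, SE 0.37, edgeR adjusted p = 0.0128) and Mfap3l (-1.85, SE 0.38, edgeR adjusted p = 0.0185) were lower. In the Rgs5 class 6 were higher and 7 lower (8.97% and 5.98% of genes tested), with the latent TGF-beta binding protein gene Ltbp2 higher (2.35, SE 0.49, edgeR adjusted p = 0.0117) and Adamts6 (-2.42, SE 0.38, edgeR adjusted p = 0.00336), Loxl2 (-1.57, SE 0.33, edgeR adjusted p = 0.0187) and Tgfb1 (-1.46, SE 0.10, edgeR adjusted p = 7.06e-05) lower. In the Pappa2 class, at P15 alone, Tgfb3 (1.02, SE 0.18, edgeR adjusted p = 0.0363) and Tgfb1 (0.91, SE 0.14, edgeR adjusted p = 0.0229) were higher and 0 were lower, where 0.500% and 0.0757% of genes tested were. Other folds named from the list also rest on low levels, so their size depends on the prior count. Adamts6 stood at 0.214, 1.98 and 0.655 TMM-scaled CPM in the Rgs5 class. Mfap3l stood at 1.64, 1.17 and 1.05 in the Hand2 class and Adamtsl3 at 2.05, 1.08 and 0.334 in the Ifitm5 class. Loxl4 was at 0 in the Hand2 class at P15 and in the Rgs5 class at 8 weeks. The median log2 fold change of the list lay between -0.036 and 0.14 in the 6 comparisons.

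The genes most like each member were sought by Pearson's r of log2(CPM + 10) over the 13 class sums, among 4285 genes, as a description in which the sums share libraries. For Fbln1 they were Zfp503 (r = 0.97), Fzd8 (r = 0.97), Rilpl2 (r = 0.97), and for Eln Mef2d (r = 0.95), Glrx2 (r = 0.91), Daam2 (r = 0.91). For Fbn1 they were Egfr (r = 0.95), Ybx3 (r = 0.94), Snx18 (r = 0.93), for Emilin1 Slc30a4 (r = 0.96), Il11ra1 (r = 0.93), Neo1 (r = 0.93) and for Fbln5 Rarres2 (r = 0.95), Arhgef25 (r = 0.94), Pitpnc1 (r = 0.94). Mfap4 was most like Ptbp1 (r = 0.94), Igf2 (r = 0.93), Plagl1 (r = 0.93), Mfap2 like Mdk (r = 0.92), Ttyh3 (r = 0.92), Ddx17 (r = 0.90), and Fbln2 like Hebp1 (r = 0.92), Ss18 (r = 0.89), 9130401M01Rik (r = 0.87). Fbn2 was most like Rcc2 (r = 0.91), Uqcrc1 (r = 0.89), mt-Co2 (r = 0.86), and Mfap5 like Mybbp1a (r = 0.87), 2810004N23Rik (r = 0.87), Dnm1l (r = 0.85), the weakest likeness of the 10. Among the members, Fbln1 and Emilin1 were the most alike (r = 0.90) and Eln and Fbln5 the least (r = -0.62).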

How the data were processed

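Per the labels and file headers, 10x Genomics 3′ v3.1 libraries were sequenced on an Illumina NovaSeq and processed by the authors with Cell Ranger (6.1.2 at P15 and 8 weeks and 6.0.1 at P25 by the headers, 6.1.2 by the submitters' processing notes, build mm10). The deposited counts are UMI counts per gene and cell, whole numbers without normalization, and the annotation is not given in the sources used here. All deposited cells were kept, and no doublet caller was run. UMIs were summed per class and library (13 sums of at least 20 cells, 878426 to 22007018 UMIs, TMM factors 0.801 to 1.14) and fitted with edgeR 4.0.16 (TMM, quasi-likelihood test, Benjamini-Hochberg adjustment over 13204 genes), with DESeq2 1.42.0 as an alternative, in R 4.3.3. Python 3.11.15, numpy 2.4.6, scipy 1.17.1, pandas 2.3.3 and matplotlib 3.10.9 were used. Both tests were tested on simulated data. Sums of 1 library share a block because they come from the same pooled cells. The members, lists and tests were chosen with earlier results of these data known. The genes named are all 10 members, for each the 3 genes with the highest likeness, and in each comparison at most 4 called genes of the pathway list with the largest change, while the genes leading in Mfap5 cells were chosen after their values were seen. Intervals are exact Poisson intervals at 95%. Alternatives changed the size factors, test, low-count filter, block, gates, cells kept, thinning and each library left out. The study's P6 library and spatial data were not analysed here.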

Additional observations from a re-analysis of the deposited data

Results flagged for a closer look

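Cells with Epcam UMIs were in no test between classes. Above, their levels were set beside those of mesenchymal cells. Together with cells with Ptprc UMIs, they also served to set the gates. They held Fbln1 at 96.5, 109 and 91.2 CPM (P15, P25, 8 weeks), above the level of the mesenchymal Ifitm5 class in each library. Of these cells, 70.1%, 83.6% and 83.3% had a Fbln1 UMI, at median depths of 21275, 36862 and 22461.5 UMIs, against 21.2%, 18.0% and 10.6% with a Fbn1 UMI. Fbln2 in the same cells stood at 46.4 CPM at P15, above the Rgs5 and Pappa2 classes. Mfap5 stood at 11.0 CPM in the P25 Epcam cells, above the Ibsp, Ifitm5, Hand2 and Rgs5 classes, from 255 UMIs in 18 of 590 cells with up to 70 in 1 cell. The log2 level of Mfap5 in the Ibsp class minus the mean of the other classes was -1.01 at P15 and 2.04 at 8 weeks. In the Rgs5 class it was 1.34 at P15 and -1.37 at P25, where the class held 1 Mfap5 UMI. These differences between ages were not tested.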

How the results depend on the processing

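Of 160 values under alternatives for the 10 called differences, 137 kept direction and call, 22 kept the direction only and 1 reversed. For the 50 not called, 739 of 780 stayed so, 38 passed and 3 reversed. With the Rgs5 gate at 20 UMIs (chosen after seeing the data, P15 alone), the Rgs5 class differences reversed for Mfap4 (-0.60), Eln (-0.85), Mfap2 (-0.77) and Emilin1 (-1.28). The number of genes called between the Ibsp and Ifitm5 classes (1) was 3 by DESeq2, 0 with no replicate block, 2 after thinning and 3 with that Rgs5 gate. In the Ibsp class (1) it was 2 by DESeq2, 0 with gates at 3 UMIs, 2 after thinning and 2 with the P25 Ibsp gate in all libraries (also chosen after seeing the data), and without the replicate block Fbln2 was called in place of Eln. In the Hand2 class (2) it was 0 after thinning. In the Rgs5 class (2) it was 1 after thinning, 5 without the Pappa2 class and 4 with the Rgs5 gate at 20 UMIs. Leaving out 1 library at a time gave 0 to 4 between the Ibsp and Ifitm5 classes, 0 to 4 for Ibsp, 2 to 5 for Ifitm5, 0 to 2 for Hand2 and 0 to 5 for Rgs5, with the lowest count of each without P25, reached also without 8 weeks in the first 3, and the highest of each without P15. The Pappa2 count was 0 in each alternative that gave a value, which leaving out P15 or that class could not. Over all genes, 945 were called between the Ibsp and Ifitm5 classes (296 with no replicate block), 262 for Ibsp (62, and 586 by DESeq2), 2936 for Ifitm5 (1686), 1073 for Hand2 (460), 1974 for Rgs5 (1006) and 76 for Pappa2 (28, and 244 by DESeq2). In the same order these counts were 7, 19, 693, 58, 234 and 5 without P25 and 145, 42, 1700, 407, 736 and 17 without 8 weeks, and the first 5 were 1743, 674, 3092, 1582 and 2649 without P15. Another alternative gave the Ibsp, Ifitm5, Hand2 and Rgs5 classes equal weight and left out all other mesenchymal cells. The age ratios of Mfap5 (0.406) and Fbn1 (0.750) then turned below 1. The 3 genes past 2-fold were Fbln1 higher and Eln (0.497) and Mfap5 lower, with Fbln2 at 1.60. Under the other 6 alternatives they were Fbln1, Fbln2 and Mfap5, all higher. The cause of the changes in this section was not tested. Of the 130 levels of the members in the 13 sums, 90 stayed within their Poisson interval with gates at 3 UMIs and 69 with doubled gates. After thinning, which keeps fewer UMIs, 26 did. Ratios to the levels given above, for levels of at least 10 CPM, ran from 0.400 to 3.17, 0.673 to 2.18 and 0.131 to 3.20 in these 3 alternatives. Their medians were 1, 0.958 and 0.917. Depth limits Mfap5 most, with 1 to 11 UMIs in 5 of the 13 sums tested.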
